A study of Rattus norvegicus with 12 samples.

Results

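Collagen chain genes are the genes for the polypeptides that wind in threes into collagen, the main protein of the lung's fibrous scaffold and of its basement membranes. Members were the rows of the deposited table whose symbol is Col, a type number, the letter a and a chain number, and 44 of 30045 rows fitted. A copy row, Col1a2-2, was kept apart. The animals were male Fischer 344 rats of the F344/DuCrl strain, bought at 3 months of age and housed 3 per cage. In whole-body chambers 6 of them breathed air, and the other 6 breathed crystalline nanocellulose (CNC), rod-like crystals made from plant cellulose, at 20 mg/m3. Exposure ran 6 hours a day and 5 days a week for 14 days in all, and a piece of lung was taken 1 day after its end. RNA sequencing of these pieces asked which genes respond to inhaled CNC. Cage mates, time of day and lung lobe were not analysed here.

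Collagens are sorted by the structure they build. Fibrillar collagens form the ropes that bear tension, and type IV collagen forms the sheet of the basement membrane under epithelium and endothelium. FACITs (fibril-associated collagens with interrupted triple helices) sit on the surface of fibrils, type VI collagen forms beaded filaments near cells, and transmembrane collagens are cell surface proteins. In lung, fibroblasts make most fibrillar and type VI collagen, whereas endothelial, epithelial and perivascular cells add to the basement membrane.

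Most collagen chain genes with a call were lower after CNC, by small amounts. Of the 34 members that passed the count filter 17 fell, 2 rose and 15 did not pass an adjusted p of 0.05 (edgeR's quasi-likelihood test, adjusted over all 15019 tested genes). Among all tested genes 24.6% passed, 11.4% as lower and 13.2% as higher. Since most collagens with a call are abundant, genes that average 10 CPM or more (counts of a gene scaled to a common library size, here with TMM factors) are a nearer background, a level chosen after the values were seen. There 14.1% were lower and 15.3% higher, against 16 and 1 of the 27 members at that level. The median log2 fold change was -0.27 over the 34 tested members and -0.003 over all tested genes. The falls ran from 1.13- to 1.51-fold. In 12 members no CNC rat lay within the range of the air rats, 11 of them lower and 1 higher, against 11.5% of all tested genes in either direction and 4.7% in the lower one. In each of the 17 genes that fell, all 6 CNC rats lay below the air median. The calls came from the same values, so this placing adds no evidence. Some members without a call share it, such as Col4a3 and Col18a1. In bulk tissue, fewer cells of a type and less RNA per cell cannot be told apart.

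**Figure D1:**
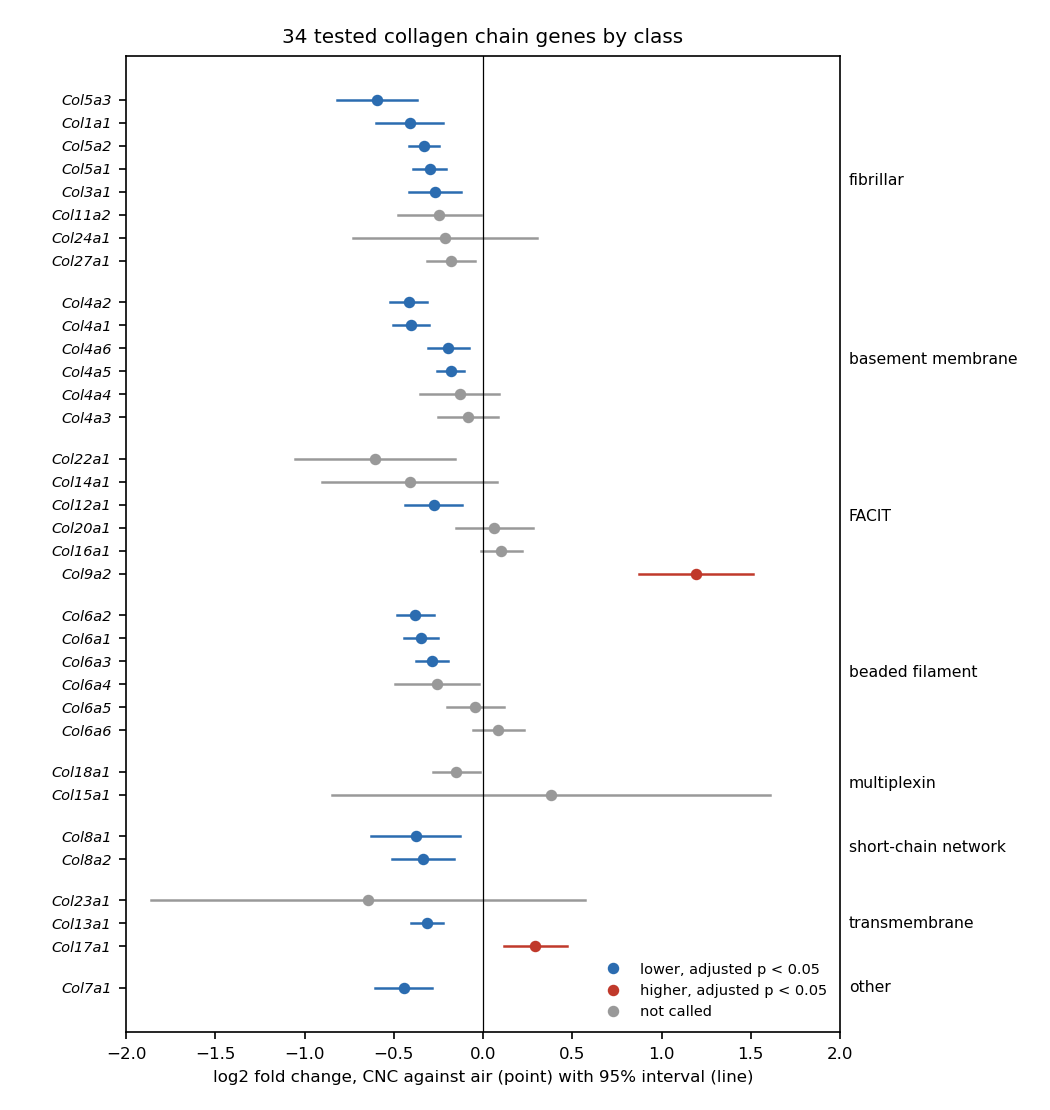
Log2 fold change of each tested collagen chain gene (points, CNC against air, 6 rats a group) with its 95% interval (lines), by class on the right. Most points lie to the left of 0 between -0.59 and -0.18, Col9a2 stands apart at 1.19, and Col15a1 and Col23a1 have the widest intervals.

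Summed over the 44 rows, collagen took 0.803, 0.836, 0.734, 0.821, 0.804 and 0.72% of all counts in air rats 1 to 6, and 0.6295, 0.641, 0.6254, 0.622, 0.605 and 0.665% in CNC rats 1 to 6. The 2 groups did not overlap, and the means were 0.786 ± 0.0477% and 0.631 ± 0.0204% (SD, 6 rats each). Fibrillar genes gave 32.2% of the collagen counts in air and 31.97% in CNC, type IV genes 31.1% and 29.8%, type VI genes 24.7% and 25.1%, and FACIT genes 6.52% and 7.38%. These shares are of counts and not per gene length, so they compare groups and not classes. Library totals ran from 8693259 to 16603697 counts, and the surfactant gene Sftpc, a marker of lung, stood at 9061 CPM or more in all 12 rats.

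Of the 11 fibrillar genes 8 were tested, 5 fell and 0 rose, with a median log2 fold change of -0.28. All 8 values were below 0. Col1a1 encodes the main chain of type I collagen, the tension-bearing collagen of the interstitium. Its lowest, median and highest values were 310, 369 and 477 CPM in air and 259, 283 and 315 CPM in CNC. CNC replicate 3 alone reached into the air range, and Col1a1 fell 1.33-fold (log2 fold change -0.41 ± 0.09 SE, adjusted p = 0.00298). Col3a1 encodes type III collagen, which shares fibrils with type I. It ran over 1266, 1570 and 1653 CPM in air and over 1116, 1285 and 1339 CPM in CNC. The ranges overlapped, and Col3a1 fell 1.21-fold (log2 fold change -0.27 ± 0.07 SE, adjusted p = 0.00849). The Col3a1 call ended with a covariate of circadian clock genes, where the log2 fold change was -0.41 ± 0.13 SE (adjusted p = 0.0939). It ended too with a covariate of cartilage markers (log2 fold change -0.22 ± 0.09 SE, adjusted p = 0.103). The cartilage covariate was built from 4 genes and had a correlation of -0.62 with the group. Covariate and group can thus be told apart only in part. Whether cartilage content had a part in any call lost with that covariate was not tested.

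Type V collagen starts fibrils and limits their width, and its 3 genes all fell with no overlap between groups. Col5a2 ran over 390, 423 and 452 CPM in air and 322, 330.3 and 357 CPM in CNC, a fall of 1.26-fold (adjusted p = 3.15e-05). Col5a1 ran over 143, 162 and 173 CPM in air and 127, 131 and 138 CPM in CNC, a fall of 1.23-fold (adjusted p = 0.00013). Col5a3, the scarcest of these genes by counts, had the largest fall of any called member. Col5a3 was 17.9 ± 2.82 CPM in air against 11.9 ± 1.39 in CNC (SD, 6 rats each), which is 1.51-fold lower (log2 fold change -0.59 ± 0.11 SE, adjusted p = 0.000719). The 3 fibrillar genes tested without a call were Col27a1 (log2 fold change -0.18, adjusted p = 0.0507), Col11a2 (-0.24, adjusted p = 0.118) and Col24a1 (-0.21, adjusted p = 0.578). Col27a1 passed under 8 of 25 other settings, so its side of the threshold is not settled.

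The second chain of type I collagen could not be followed. The row Col1a2 held 1 count in all 12 libraries together, while Col1a1 held 28350 counts in air and 21524 in CNC. The copy row Col1a2-2 held 14, 16, 15, 18, 16 and 4 counts in air rats 1 to 6 and 6, 763, 12, 372, 206 and 11 counts in CNC rats 1 to 6. CNC replicates 2, 4 and 5 were high and the other 3 CNC rats lay within the air range. Col1a2-2 passed as higher (log2 fold change 3.97 ± 1.00 SE, adjusted p = 0.00845), a call lost with limma-voom or with the clock covariate (adjusted p of 0.54 at most). Which reads reach either row was not tested, so no level of the second type I chain is given.

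**Figure D2:**
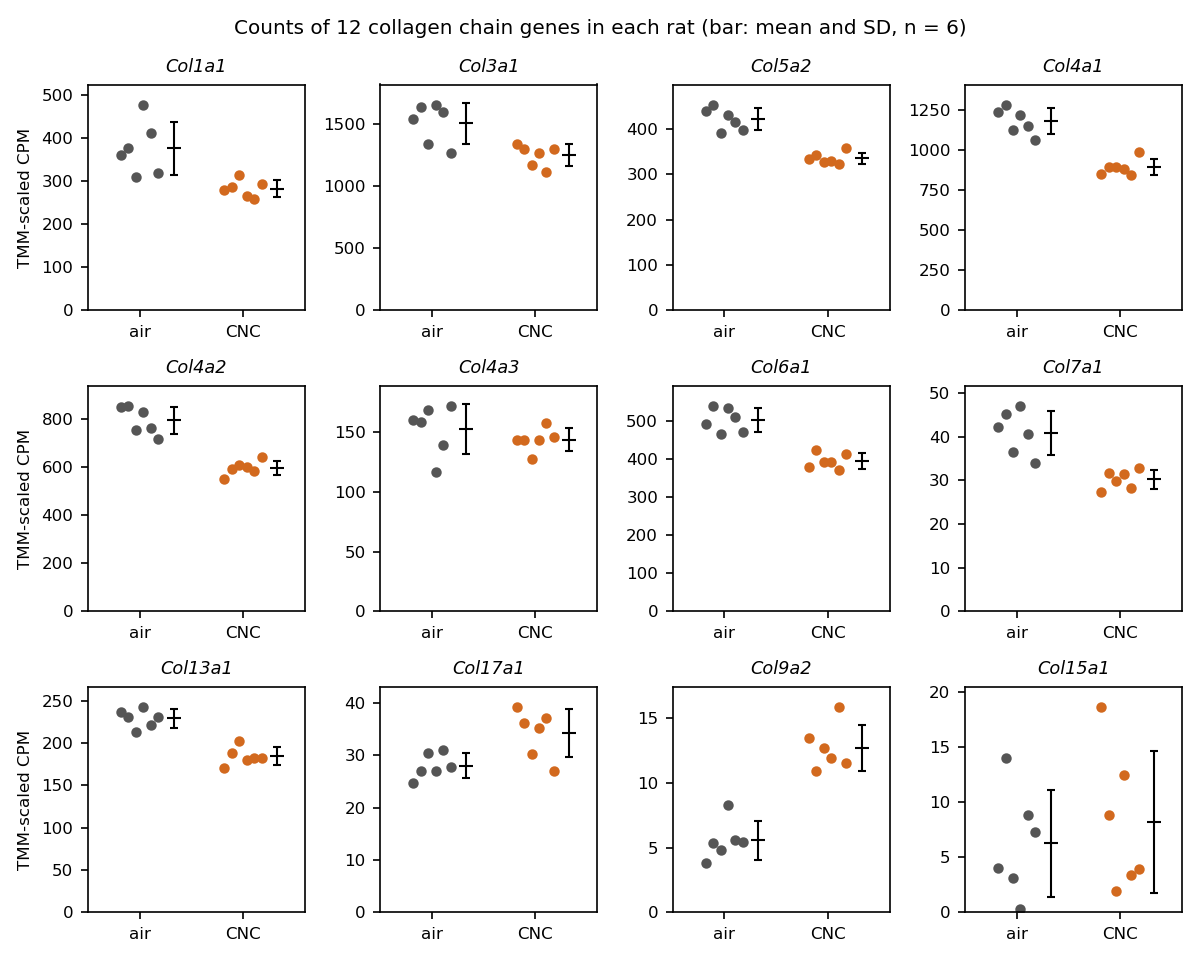
TMM-scaled CPM of 12 collagen chain genes in each of 6 air rats (grey) and 6 CNC rats (orange), each axis from 0, with the mean and SD as a bar beside the points. Col4a1, Col4a2, Col5a2, Col6a1, Col7a1 and Col13a1 show separate groups that are lower in CNC, Col9a2 separate groups that are higher, and Col4a3 and Col15a1 overlapping ones.

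Of the 6 type IV genes, all tested, 4 fell and 0 rose, with a median log2 fold change of -0.19. Type IV genes lie in head-to-head pairs that are read outward from a shared promoter. In RefSeq (build GRCr8, not the build of the counts) 76 bases separate the start sites of Col4a2 and Col4a1, 412 those of Col4a4 and Col4a3, and 1414 those of Col4a6 and Col4a5. The stretch between Col4a2 and Col4a1 (chr16:84885521-84885596, plus strand, Col4a1 reading to the right) is shown because both genes start from it. The 250 bases before Col4a3 (chr9:91323740-91323989, plus strand) are shown for contrast, since the genes of that pair had no call. Capitals mark matches on either strand to 3 core promoter motifs. The GC box was searched as GGGCGG, a site known for Sp-family factors. The CCAAT box was searched by those letters, and the TATA box as TATAAA. None of the 3 contains another.
Col4a2-Col4a1: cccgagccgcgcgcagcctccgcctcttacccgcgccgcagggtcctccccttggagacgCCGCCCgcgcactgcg
Col4a3: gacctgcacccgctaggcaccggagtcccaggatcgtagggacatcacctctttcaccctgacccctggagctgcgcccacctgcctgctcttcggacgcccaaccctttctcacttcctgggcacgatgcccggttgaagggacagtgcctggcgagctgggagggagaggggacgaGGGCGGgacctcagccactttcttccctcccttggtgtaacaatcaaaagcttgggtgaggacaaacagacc
Each stretch held 1 GC box and neither of the other motifs. A GC box lay in 19.3% of all RefSeq promoters over the 76 bases before the start, and in 32.4% over 250 bases.

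Col4a1 and Col4a2 encode the chains of the type IV trimer found in nearly all basement membranes. Col4a1 stood at 1239, 1283, 1128, 1219, 1153 and 1067 CPM in air rats 1 to 6 and at 851, 894, 898, 884, 849 and 986 CPM in CNC rats 1 to 6. Col4a2 stood at 846, 852, 754, 829.5, 763 and 714 CPM in air and at 550.01, 591, 607, 601, 581 and 640.4 CPM in CNC. For both genes every CNC rat lay below every air rat. Col4a1 fell 1.32-fold (log2 fold change -0.40 ± 0.05 SE, adjusted p = 2.59e-05) and Col4a2 1.33-fold (log2 fold change -0.42 ± 0.05 SE, adjusted p = 2.01e-05).

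The pair kept nearly the same ratio in every rat. Counts of Col4a1 over Col4a2 gave 1.46 to 1.51 in air and 1.46 to 1.55 in CNC, a log2 difference of 0.01 ± 0.02 SE (2-sided exact permutation test over 924 splits, p = 0.498, adjusted p = 0.56 over 9 pairs). Ratios of counts are not corrected for gene length, and only their change is read.

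Col4a3 and Col4a4 encode chains of the type IV trimer of the alveolar and glomerular basement membranes, in which mutations cause Alport syndrome. Col4a3 stood at 160.4, 159, 169, 117, 139 and 172 CPM in air rats 1 to 6, and at 143.4, 143.1, 128, 144, 158 and 146 CPM in CNC rats 1 to 6. Air replicates 4 and 5 were the lowest air rats for Col4a3, and with them the air range enclosed all CNC rats. The log2 fold change of Col4a3 was -0.09, with a 95% interval from -0.25 to 0.08 (adjusted p = 0.476). Col4a4 had a log2 fold change of -0.13 with an interval from -0.35 to 0.09 (adjusted p = 0.402), and air replicates 4 and 5 were again the lowest air rats. Without those 2 rats both genes passed as lower, Col4a3 with a log2 fold change of -0.20 (adjusted p = 0.00782) and Col4a4 with -0.28 (adjusted p = 0.00388). Without air replicate 4 alone Col4a4 passed as well (adjusted p = 0.0427). Leaving out the lowest air rats raises the air mean by construction, so these passes are no evidence of a fall. In the same 2 rats the summed level of 11 alveolar type 1 cell markers was the lowest of the air group, at 10546 and 10594 CPM against 11331 to 12956 in the other air rats. Heart muscle markers were the highest there, at 443 and 331 CPM, and the part of either in the Col4a3 values was not tested. The ratio of Col4a3 to Col4a1 was higher in CNC by 0.32 ± 0.12 SE on the log2 scale (2-sided exact permutation test, p = 0.026), which did not pass over the 9 pairs (adjusted p = 0.234). The 2 type IV pairs are thus not shown to differ in their response.

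Col4a5 and Col4a6 encode the remaining type IV chains, on the X chromosome. Col4a5 was the steadiest member in air, at 224 ± 4.84 CPM, and fell 1.13-fold to 198 ± 10.8 CPM (SD, 6 rats each, adjusted p = 0.00167), with no overlap. Col4a6 fell 1.14-fold, from 34.6 ± 2.15 to 30.3 ± 2 CPM (SD, 6 rats each, adjusted p = 0.0148), and 5 of 6 CNC rats lay below the air range. The clock covariate ended both calls. It gave Col4a5 a log2 fold change of -0.16 ± 0.08 SE against -0.18 ± 0.04 without it (adjusted p = 0.255), and Col4a6 one of -0.11 ± 0.11 SE against -0.20 ± 0.05 (adjusted p = 0.629). The Col4a6 call also ended with the cartilage covariate (adjusted p = 0.134) and without CNC replicates 3 and 6 together (adjusted p = 0.0594).

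**Figure D3:**
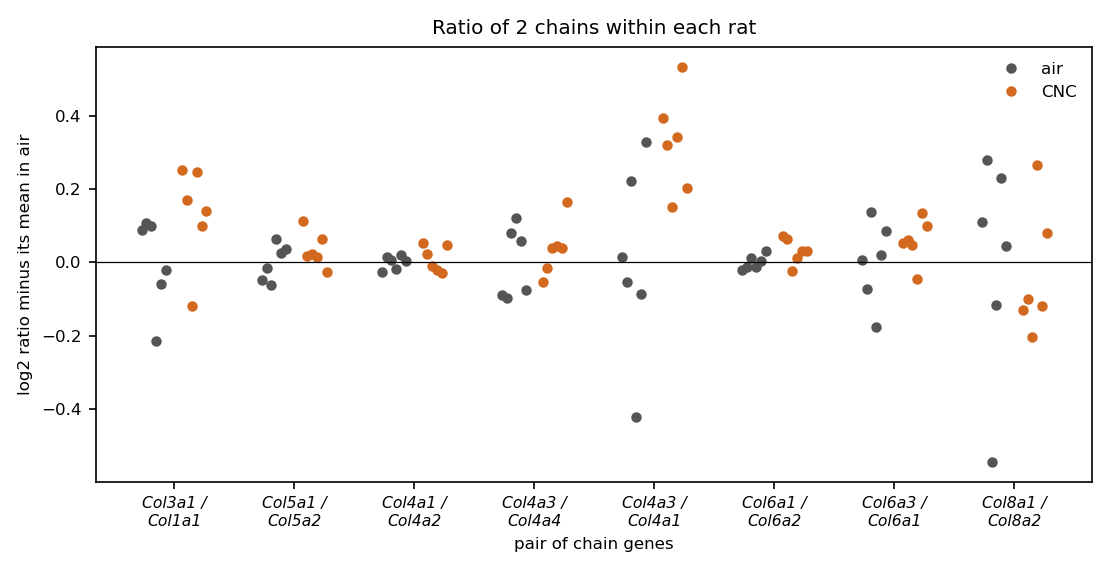
Log2 ratio of 8 pairs of chain genes within each rat, less the mean of the air rats, for 6 air rats (grey) and 6 CNC rats (orange). Col4a1 to Col4a2 and Col6a1 to Col6a2 vary least, and Col4a3 to Col4a1 lies higher in CNC on average with overlapping groups.

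Of the 6 type VI genes, all tested, 3 fell and 0 rose, with a median log2 fold change of -0.27. Col6a1, Col6a2 and Col6a3 encode the chains of the common type VI trimer, and all 3 fell with no overlap between groups. Col6a1 ran over 464, 502 and 539 CPM in air and 371, 391 and 423 CPM in CNC, a fall of 1.27-fold (adjusted p = 5.05e-05). Col6a2 ran over 433, 474 and 510.3 CPM in air and 337, 369 and 380.3 CPM in CNC, a fall of 1.3-fold (adjusted p = 4.7e-05). Col6a3 ran over 557, 595 and 610.4 CPM in air and 447, 478 and 522 CPM in CNC, a fall of 1.22-fold (adjusted p = 0.000128). The Col6a3 call ended with the clock covariate, at a log2 fold change of -0.22 ± 0.09 SE against -0.29 ± 0.04 without it (adjusted p = 0.153), and the other 2 calls did not. Counts of Col6a1 over Col6a2 gave 1.05 to 1.09 in air and 1.05 to 1.12 in CNC (2-sided exact permutation test, p = 0.0996, adjusted p = 0.344). Among the 9 pairs, which also set Col3a1 against Col1a1 (log2 difference 0.13 ± 0.08 SE), Col5a1 against Col5a2 (0.03 ± 0.03 SE) and Col6a3 against Col6a1 (0.06 ± 0.05 SE), 0 passed after adjustment.

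Col6a4, Col6a5 and Col6a6 encode alternative chains that can stand in for Col6a3, and none was called. Col6a5 stood at 279 ± 33.3 CPM in air and 271 ± 24.7 in CNC (SD, 6 rats each), with a 95% interval of the log2 fold change from -0.20 to 0.12. Col6a6 had a log2 fold change of 0.09 (interval from -0.05 to 0.23) and Col6a4 one of -0.26 (adjusted p = 0.103). Col6a4 had its lowest air values in replicates 4 and 5. It passed as lower without either of them (adjusted p = 0.0222 and 0.0489) and with a heart muscle covariate (adjusted p = 0.0364). Leaving out a low air rat raises the air mean by construction, so the passes without a rat are no evidence of a fall.

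FACIT genes had 1 call in each direction. Of 9 rows 6 were tested, 1 fell, 1 rose and 4 had no call, with a median log2 fold change of -0.11. In either direction 1 of 6 is near the share of all tested genes, 11.4% lower and 13.2% higher. Col21a1, the tenth gene of this class, had no row of that symbol in the deposited counts. Col12a1 encodes type XII collagen, which bridges fibrils under load. Col12a1 ran over 227, 297 and 334 CPM in air and 226, 247 and 257 CPM in CNC, a fall of 1.21-fold (adjusted p = 0.0138), and air replicate 4 was the lowest of the air rats. With the clock covariate the log2 fold change of Col12a1 turned to 0.12 (adjusted p = 0.623).

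Col9a2 encodes a chain of type IX collagen, a FACIT best known from cartilage, and it was the member that rose most. It stood at 3.82, 5.33, 4.83, 8.32, 5.61 and 5.45 CPM in air rats 1 to 6 and at 13.4, 10.9, 12.7, 11.9, 15.8 and 11.5 CPM in CNC rats 1 to 6. Every CNC rat lay above every air rat, and Col9a2 rose 2.29-fold (log2 fold change 1.19 ± 0.15 SE, adjusted p = 3.83e-05). With the clock covariate its log2 fold change was 0.82 ± 0.28 SE (adjusted p = 0.115), and in the other 24 settings the call held. The partner chains of type IX collagen were below the count filter: Col9a1 held 5 counts in air and 2 in CNC, and Col9a3 held 42 and 29. Several other cartilage genes were near 0 as well, and which reads reach such rows was not tested. Col2a1, the main collagen of cartilage, held 1 count in air and 2 in CNC, the aggrecan gene Acan 0 and 5, and the matrilin gene Matn1 1 and 1. Of 13 cartilage markers 4 were tested, 1 fell and 0 rose. The summed level of the list was 39.3 to 50.3 CPM in air and 31.9 to 44.5 CPM in CNC, most of it from Cytl1. Cytl1 stood at 39.4 ± 3.88 CPM in air and 28.4 ± 4.27 in CNC, and Sox9 at 5.34 ± 1.14 and 4.28 ± 0.698 (SD, 6 rats each).

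The other FACIT genes had no call. Col16a1 stood at 163 ± 14.5 CPM in air and 175 ± 9.65 in CNC (SD, 6 rats each, adjusted p = 0.195), with all 6 CNC rats above the air median. Col22a1 had a log2 fold change of -0.60 at about 1 CPM (adjusted p = 0.0531) and passed in 5 of 24 other settings. Col14a1, known from matrix-rich fibroblasts, ran from 18.7 to 43.6 CPM in air and from 14.8 to 41.3 CPM in CNC. CNC replicate 1 was its highest CNC rat, and without it Col14a1 passed as lower (log2 fold change from -0.41 to -0.66, adjusted p = 0.021). Leaving out that rat lowers the CNC mean by construction, so the pass is no evidence of a fall. Col20a1 had a log2 fold change of 0.06 (adjusted p = 0.713).

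Of 3 tested transmembrane collagens 1 was lower and 1 higher, too few genes to set against the 11.4% and 13.2% of all tested genes. Col13a1 encodes a transmembrane collagen of cell-matrix junctions. It ran over 213, 231 and 243 CPM in air and 171, 182 and 203 CPM in CNC, with no overlap, and fell 1.24-fold (adjusted p = 6.7e-05). Col17a1 encodes the epithelial collagen of hemidesmosomes, which tie basal epithelium to its basement membrane. Col17a1 ran over 24.8, 27.4 and 31.1 CPM in air and 27.0, 35.7 and 39.2 CPM in CNC, and 4 of 6 CNC rats lay above the air range. It rose 1.23-fold (log2 fold change 0.29 ± 0.08 SE, adjusted p = 0.0174), and the clock covariate ended that call at a larger log2 fold change and SE (0.42 ± 0.17, adjusted p = 0.177). Col23a1 varied from 0.24 to 8.41 CPM within the air group and had no call.

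The 250 bases before the start of the 2 members that rose are shown. Neither held a GC box, which lay in 9 of the 13 fallen members with a RefSeq promoter and in 32.4% of all RefSeq promoters. From 2 genes no link between motif and direction is read. Col9a2 lies at chr5:139892548-139892797 on the plus strand and Col17a1 at chr1:256518858-256519107 on the minus strand (GRCr8), each given 5′ to 3′ with capitals as above.
Col9a2: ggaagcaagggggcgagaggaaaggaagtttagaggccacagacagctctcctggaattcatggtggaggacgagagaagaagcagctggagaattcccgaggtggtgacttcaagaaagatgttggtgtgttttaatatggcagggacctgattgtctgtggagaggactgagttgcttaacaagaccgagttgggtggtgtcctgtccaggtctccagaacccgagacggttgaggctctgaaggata
Col17a1: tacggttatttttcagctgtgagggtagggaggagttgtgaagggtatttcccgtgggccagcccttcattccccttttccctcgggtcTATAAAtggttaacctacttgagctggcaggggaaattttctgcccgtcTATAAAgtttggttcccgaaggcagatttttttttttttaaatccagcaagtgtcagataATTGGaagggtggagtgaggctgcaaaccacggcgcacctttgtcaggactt
Col17a1 held 2 TATA boxes and 1 CCAAT box, and Col9a2 held no match. TATAAA lay in 13.1% of all 27457 RefSeq promoters and CCAAT in 34.3%. Of the 13 tested members without a call that have a RefSeq promoter 9 held a GC box, the same count as among the fallen ones. In all 35 of 44 members matched by symbol, and Col1a1, Col3a1, Col6a2 and Col12a1 were among the 9 that did not.

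The remaining classes are small. Type VII collagen, encoded by Col7a1, forms the fibrils that anchor basement membranes to the stroma. Col7a1 ran over 33.9, 41.5 and 47.0 CPM in air and 27.4, 30.6 and 32.8 CPM in CNC, with no overlap, and fell 1.36-fold (adjusted p = 0.000451). Col8a1 and Col8a2 encode the short chains of type VIII collagen, which forms networks in vessel walls. Col8a2 fell 1.26-fold, from 14.2 ± 1.51 to 11.2 ± 0.895 CPM (SD, 6 rats each, adjusted p = 0.00698), a log2 fold change of -0.33 ± 0.08 SE. The Col8a2 call was lost at -0.28 ± 0.17 SE with the clock covariate (adjusted p = 0.373) and at -0.30 ± 0.11 SE with the cartilage covariate (adjusted p = 0.0681). Col8a1 fell 1.3-fold at 8.07 ± 1.21 CPM in air and 6.2 ± 0.84 in CNC (SD, 6 rats each, adjusted p = 0.0277). The Col8a1 call was lost in 11 of 25 settings, among them leaving out air replicate 2 or 6 or CNC replicate 1, 2, 3, 5 or 6 (adjusted p from 0.0545 to 0.0794). In those 7 runs its log2 fold change lay between -0.36 and -0.31, against -0.38 with all rats.

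The multiplexins Col15a1 and Col18a1 link basement membranes to stroma, and neither was called. Col18a1, the source of endostatin, stood at 100.4 ± 10.7 CPM in air and 90.8 ± 5.14 in CNC (SD, 6 rats each, log2 fold change -0.15, adjusted p = 0.0944). It passed without air replicate 3, its lowest air rat (adjusted p = 0.0297). Col15a1 stood at 4.03, 14, 3.17, 0.305, 8.84 and 7.31 CPM in air rats 1 to 6 and at 18.6, 8.84, 1.92, 12.4, 3.42 and 3.94 CPM in CNC rats 1 to 6. Its spread within either group was wide. The 95% interval of the Col15a1 log2 fold change, from -0.85 to 1.61, leaves direction and size undecided. The 10 members below the filter held 1 to 75 counts over all 12 libraries: Col1a2, Col2a1, Col9a1, Col9a3, Col10a1, Col11a1, Col19a1, Col25a1, Col26a1 and Col28a1.

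**Figure D4:**
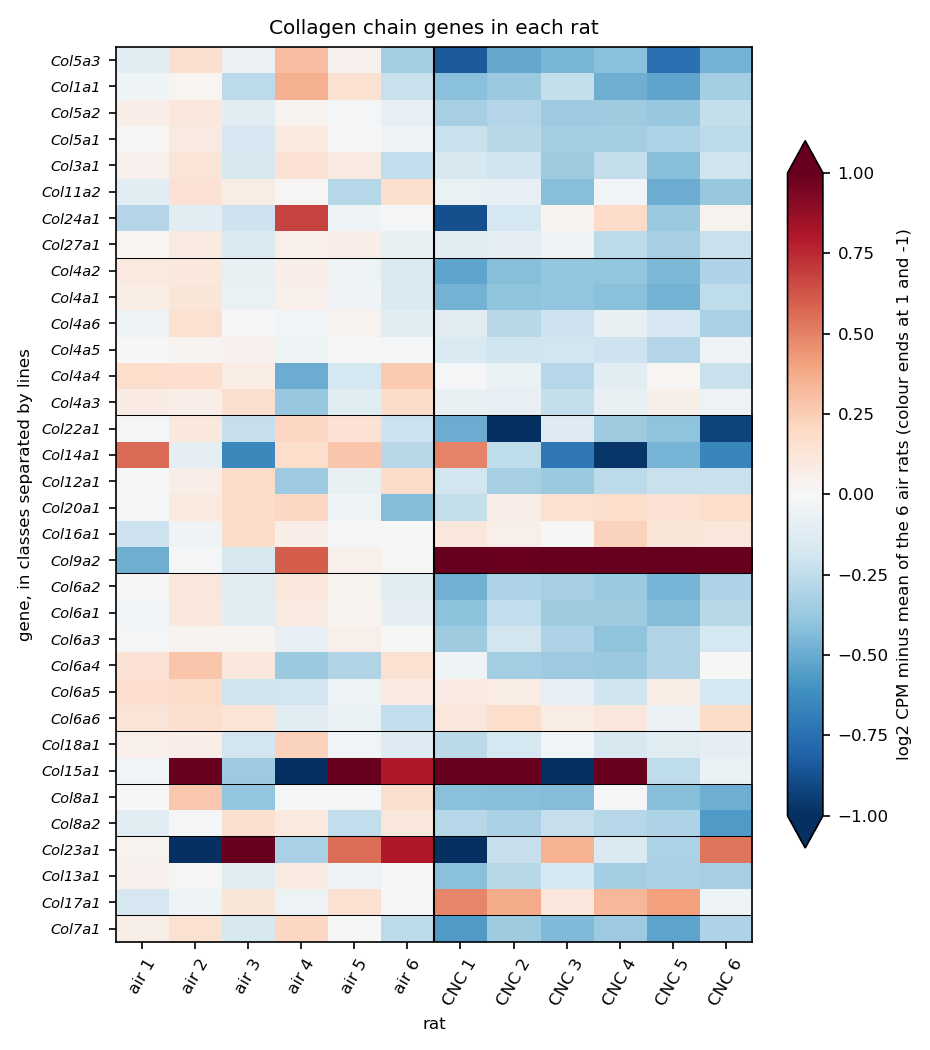
Log2 CPM of each tested collagen chain gene in each rat, less the mean of the 6 air rats (blue lower, red higher, with colours ending at 1 and -1), in classes separated by lines. The 6 CNC columns are blue for 27 or 28 of 34 genes, Col9a2 is the row that is dark red in all 6, and air replicate 4 shows low Col4a3, Col4a4 and Col12a1 beside high Col1a1.

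Genes that act on collagen were counted from 5 lists chosen with earlier results of these data known, to be read against the 11.4% lower and 13.2% higher of all tested genes. The endoplasmic reticulum steps (hydroxylation, folding and secretion) were split, with 6 of 24 tested members lower, 4 higher (a share near that of all genes) and a median log2 fold change of -0.02. Plod2, which hydroxylates the lysines used for cross-links, fell 1.28-fold (adjusted p = 2.62e-05). The prolyl 3-hydroxylases Leprel1 and Leprel2 fell 1.35- and 1.14-fold, and the collagen chaperone Serpinh1 fell 1.12-fold (adjusted p = 0.00647). The members that rose also serve other secreted proteins: P4hb, a disulfide isomerase and prolyl hydroxylase subunit, rose 1.21-fold (adjusted p = 1.3e-05), Pdia3 1.12-fold, Ppib 1.11-fold and the coat protein Sec24d 1.14-fold. P4ha1, the catalytic partner of P4hb, stood at 113 ± 8.71 CPM in air and 112.7 ± 10.6 in CNC (SD, 6 rats each).

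Among genes of procollagen cleavage and cross-linking 5 of 13 tested members fell and 0 rose. They included the peroxidasin gene Pxdn, which cross-links type IV collagen (1.22-fold, adjusted p = 0.000107), the procollagen peptidase Adamts2 (1.21-fold), the lysyl oxidase Loxl2 (1.2-fold) and the transglutaminase Tgm2 (1.13-fold). Lox itself had a log2 fold change of -0.15 (adjusted p = 0.169). Among fibril organisers 7 of 18 tested members fell and 2 rose. Sparc, a collagen chaperone of the matrix, fell from 2182 ± 115 to 1745 ± 87.8 CPM (SD, 6 rats each), a log2 fold change of -0.32 (adjusted p = 6.59e-05), and Postn, Sparcl1 and Prelp fell 1.23-, 1.2- and 1.18-fold. The small proteoglycan Fmod rose 1.32-fold and Cthrc1 1.62-fold. The Dcn values were 175 ± 53.9 CPM in air and 135 ± 11.9 in CNC (SD, 6 rats each, adjusted p = 0.0807).

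Among collagen receptors 4 of 9 tested members fell and 1 rose, and 1 of 9 is no more than the share of all genes that rose. The integrin chains Itga1 and Itgb1 fell 1.18- and 1.1-fold, the discoidin receptor Ddr2 of mesenchymal cells fell 1.13-fold, the uptake receptor Mrc2 fell 1.14-fold, and the epithelial discoidin receptor Ddr1 rose 1.16-fold. In the degradation list 4 of 10 tested members fell and 3 rose. Ctsk, a cathepsin that cuts the collagen helix, rose from 21.0 ± 7.64 to 55.4 ± 9.5 CPM (SD, 6 rats each, 2.68-fold, adjusted p = 0.000121), with no overlap. Mmp14 rose 1.13-fold and Timp1 1.2-fold, while the protease inhibitor Reck fell 1.27-fold, Ctsl 1.14-fold, Mmp2 1.16-fold and Timp2 1.08-fold.

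Markers of several cell types that make collagen were often called lower as well, and those of others less often. Of fibroblast markers 9 of 17 tested fell, of pericyte markers 9 of 10, of endothelial markers 15 of 17 and of alveolar type 1 markers 8 of 11, and none of these rose. Of all tested genes 11.4% fell, and of those at 10 CPM or more 14.1%. Summed levels of these marker lists did not overlap between groups. For fibroblast markers they were 3864 to 4332 CPM in air and 3399 to 3699 in CNC. Most of that sum came from Macf1 and Limch1, with means of 1642 and 1218 CPM in air. For pericyte markers the sums were 1197 to 1480.5 CPM in air and 993 to 1166 in CNC. Postn, also counted as a fibril organiser, was the largest part, with a mean of 682 CPM in air. For endothelial markers the sums were 8292 to 9608 CPM in air and 6836 to 7726 in CNC, and for type 1 markers 10546 to 12956 and 9666 to 10167. Examples are Pdgfrb (1.36-fold lower), Cd34 (1.24-fold) and Cdh5 (1.29-fold), falls of about the size of those of the collagens. Myofibroblast and smooth muscle markers had 2 of 10 tested members lower and 8 without a call. The median log2 fold change of that list was -0.22, against -0.23 for fibroblast markers, so fewer calls do not show a smaller fall. The myofibroblast and smooth muscle sums overlapped, at 471 to 673 CPM in air and 436 to 546 in CNC. Mesothelial markers had 1 of 7 tested members lower. Of 9 tested macrophage markers 4 rose and 2 fell (Csf1r 1.13-fold and Fabp4 1.37-fold), and the list summed to 14105 to 18884 CPM in air and 23140 to 28862 in CNC, with Lyz2 as most of the sum. The part of these cells in the collagen values was not tested.

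Clock genes differed between the groups, with 8 of 16 tested members higher and 6 lower, beside 13.2% and 11.4% of all tested genes. Their summed levels were 769 to 1078 CPM in air and 1055 to 1298 CPM in CNC. As the genes moved both ways, that sum is no measure of the clock. With a covariate built from the clock genes 10 of the 17 falls kept their call and neither rise did. Over all 15019 tested genes 442 passed as higher and 245 as lower with it, against 1981 and 1710 without it. The covariate raised the standard errors of the 19 called members by a median factor of 2.01, and 18 of the 19 kept their sign. Of the 9 that lost their call 8 kept their sign, among them 2 with a fold at least as large as before (Col3a1 and Col17a1), and Col12a1 turned. The median log2 fold change over the 34 tested members was -0.28 with it. The 10 that kept their call were Col1a1, Col4a1, Col4a2, Col5a1, Col5a2, Col5a3, Col6a1, Col6a2, Col7a1 and Col13a1, and they did so under each of the 25 other settings tried. The covariate and the group can be told apart only in part, since their correlation over the 12 rats was -0.88.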

How the data were processed

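The authors deposited 1 table of raw counts per gene symbol for 12 libraries, with no normalization. Per the labels' protocols these are strand-specific libraries of polyadenylated RNA amplified over 12 PCR cycles. HTSeq 0.11.2, HISAT2 2.1.0, SAMtools 1.8, Trimmomatic 0.35, bcl2fastq 2.19 and Cufflinks are listed, with no role, in the submitters' processing notes. The build Rnor6 is in the name of the deposited table, while annotation and strand setting are not given in these sources, so overlapping genes and copies are uncertain. Amplified reads are not independent molecules.

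Columns were matched to rats by the number in their titles, and groups came from the treatment label. Replicate numbers only name a rat. Counts were filtered with filterByExpr (minimum count 10, minimum total 15), given TMM factors, and fitted in edgeR 4.0.16 (R 4.3.3) with glmQLFit. The contrast CNC minus air was tested by glmQLFTest, and p-values were adjusted by Benjamini-Hochberg, with calls under 0.05. Log2 CPM use a prior count of 2. Standard errors are the log2 fold change over the root of F, and 95% intervals use the total degrees of freedom. On simulated data of 14937 genes 46, 78, 94 and 100% of genes changed 1.25-, 1.5-, 2- and 4-fold passed, and 14 of the 173 calls fell on genes left as they were. Alternatives used DESeq2 1.42.0, limma 3.58.1, other scalings and filters, covariates and left-out rats. The members and lists were chosen with earlier results of these data known.

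All collagen rows are accounted for, and those with a call or on a set panel are given in full. Each list gives up to 4 called genes of smallest adjusted p in each direction. Genes resolved through RefSeq synonyms keep the table's symbol, and Aspn, Comp and Postn are on 2 lists each. Promoters are from RefSeq (GRCr8), upstream bases only. Figures used matplotlib 3.10.9.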

Additional observations from a re-analysis of the deposited data

Results flagged for a closer look

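In 6 of the 68 groups examined (34 tested members in air and in CNC, 6 rats each) 1 rat lay far from the other 5, past Dixon's 95% critical value, which chance gives in about 1 group in 20. CNC replicate 1 stood high for Col14a1 (41.3 CPM, next 24.5) and low for Col20a1 (11.3 CPM, next 14.0). CNC replicate 6 stood high for Col4a1 (986 CPM, next 898) and low for Col8a2 (9.49 CPM, next 11.3). CNC replicate 4 stood high for Col8a1 (7.9 CPM, next 5.94), and air replicate 4 for Col24a1 (1.99 CPM, next 1.16). Without CNC replicate 1, Col14a1 passed as lower (adjusted p = 0.021), a result that leaving out its highest CNC rat favours. In the other 5 cases the fit without the rat named gave the same side of the threshold.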

How the results depend on the processing

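The 17 falls were all kept under the other scalings, count filters, edgeR with robust = TRUE, limma-voom and the DESeq2 Wald test. Leaving out 1 rat at a time gave 16 to 20 collagen genes lower, and 0 of 9 chain ratios passed in each such run. With the circadian clock covariate 10 collagen genes were lower and 0 higher. Over all genes 442 were higher and 245 lower with it, against 1981 and 1710 without it, and the cause was not tested. With that covariate 6 values turned in sign: Col12a1 (log2 fold change 0.12), Col20a1 (-0.21), Col4a3 (0.30), Col4a4 (0.46), Col6a4 (0.28) and Col6a5 (0.31). Only Col12a1 of these had been called. Values with no call also turned. Leaving out 1 rat at a time, the log2 fold change of Col20a1 ran from -0.00287 (without air replicate 6) to 0.12 and that of Col15a1 from -0.0286 (without CNC replicate 1) to 0.849. The log2 ratio of Col8a1 to Col8a2 ran from -0.144 to 0.021, above 0 without air replicate 2 or 5. Without air replicates 4 and 5 together Col24a1 stood at 0.010. Of 849 results of a member under another setting 794 kept direction and side of the threshold. Scaling by library size alone moved the share of lower calls among all called genes from 46.3 to 56.1%. No paired analysis was possible because replicate numbers follow only the order of the samples. Col22a1 and Col24a1 held 5 to 26 counts a library, and the part of depth in their spread was not tested.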

Other observations

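Many collagen chain genes had a smaller spread among the CNC rats than among the air rats. The median coefficient of variation over the 34 tested members was 11.4% in air and 7.14% in CNC, and it was smaller in CNC for 24 of them (70.6%). Over all tested genes the medians were 8.23% and 7.81%, and it was smaller in CNC for 54.5% of genes. No test was made of this. Air replicate 4 was the highest air rat for Col1a1 (477 CPM), Col3a1 (1653 CPM), Col5a3 (22.0 CPM), Col7a1 (47.0 CPM) and Col18a1 (117.5 CPM) and the lowest for Col4a3 (117 CPM), Col4a4 (28.7 CPM), Col12a1 (227 CPM) and Col6a4 (22.7 CPM). Col15a1 and Col23a1 had coefficients of variation of 77.2 and 77.7% in air and 78.6 and 56.4% in CNC. Of 10 tested proliferation markers 2 were higher and 8 had no call, beside 13.2% of all tested genes higher. Adipocyte markers were lower in 2 of 5 with 1 higher, beside 11.4% of all genes lower. Red cell markers fell in 6 of 8 with 1 higher, beside the same 11.4%. Heart muscle markers fell in 1 of 10 (Kcnj3), near that share. Their median log2 fold change was -1.13, with summed levels of 16.3 to 443 CPM in air and 15.5 to 131 CPM in CNC.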
